A study of Mus musculus with 12 samples.

Results

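The variable (V) segments of the mouse T cell receptor alpha and beta chains, Trav and Trbv, were described gene by gene in bulk messenger RNA of T cells with and without coronin 1. Members were all rows of the count table whose Ensembl ID has a symbol starting with Trav or Trbv and whose counts, summed over the 12 libraries, reached 10. Of 162 such rows in a table of 45706 genes, 100 were members, 76 of 128 Trav and 24 of 34 Trbv rows. The lowest member total was 12 counts and the highest total left out was 7.

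The study concerns a coronin 1-dependent pathway in T cells and the rejection of transplants. Polyadenylated RNA was sequenced in 4 groups of 3 libraries: conventional T cells of wild-type mice (WT), conventional T cells of mice of genotype Coro1-/- (KO), and regulatory T cells of each genotype. Coro1a encodes coronin 1, an actin-binding protein of white blood cells, and regulatory T cells are the suppressive T cells that express Foxp3. The labels give no strain, age, sex, tissue of origin, sorting gate or treatment, and they do not say whether replicates come from different mice. A p-value below therefore speaks only of the spread among these libraries, which may be technical.

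Each T cell builds its receptor by joining 1 V segment to a joining segment, and in the beta chain also a diversity segment, followed by a constant region. The V segment encodes most of the chain's variable domain, including the germline loops that touch the peptide-presenting molecule. A population of T cells therefore holds transcripts of many V segments, and the share of each is called its usage. The delta chain locus lies inside the alpha locus, and segments with dv in their name can be joined into alpha or delta chains. Several alpha families exist in near-identical copies, whose names carry a d or n after the family number.

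Both beta segments below are shown because the first of them differed most in usage between WT cell types, and the second bears the same family name. Capitals mark the bases at which the aligned V exons differ. Both lie on the plus strand of GRCm38, at chr6:41113775-41114067 and chr6:41119072-41119364, and come from GENCODE release M21. They differ at 32 of 293 positions and are 89.1% identical, which left every 50-base window of the gene model of Trbv12-1 and 98.8% of those of Trbv12-2 without a copy in another V segment.
Trbv12-1: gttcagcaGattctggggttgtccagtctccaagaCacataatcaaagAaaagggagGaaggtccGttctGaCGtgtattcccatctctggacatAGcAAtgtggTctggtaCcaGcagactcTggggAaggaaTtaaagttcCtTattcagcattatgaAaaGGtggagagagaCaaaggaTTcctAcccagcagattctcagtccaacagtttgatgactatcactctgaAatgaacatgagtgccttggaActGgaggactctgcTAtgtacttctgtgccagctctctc
Trbv12-2: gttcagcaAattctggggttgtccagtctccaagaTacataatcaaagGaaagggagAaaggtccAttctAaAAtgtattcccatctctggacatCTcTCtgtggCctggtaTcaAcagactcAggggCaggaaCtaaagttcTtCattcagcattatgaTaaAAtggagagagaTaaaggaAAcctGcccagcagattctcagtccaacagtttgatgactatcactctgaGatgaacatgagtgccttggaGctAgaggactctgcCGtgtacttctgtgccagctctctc

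The next 3 V exons belong to the alpha segments whose usage was called higher in KO conventional cells, and all carry a dv name. They lie on the plus strand of GRCm38 at chr14:53559948-53560247, chr14:53649695-53649994 and chr14:53757643-53757921. Capitals in Trav15-1-dv6-1 mark the 15 of 300 positions at which it differs from its copy Trav15d-1-dv6d-1, which is itself identical to Trav15n-1 over 300 bases. That copy and Trav15n-1 had 0 counts in all 12 libraries. The other 2 exons are in lower case throughout, with nothing marked.
Trav15-1-dv6-1: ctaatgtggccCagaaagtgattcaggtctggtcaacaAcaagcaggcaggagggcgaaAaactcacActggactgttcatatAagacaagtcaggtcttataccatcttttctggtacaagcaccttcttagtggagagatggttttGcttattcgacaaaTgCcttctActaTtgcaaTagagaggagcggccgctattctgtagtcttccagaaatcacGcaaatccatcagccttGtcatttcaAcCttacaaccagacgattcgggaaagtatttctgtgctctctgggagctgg
Trav15-2-dv6-2: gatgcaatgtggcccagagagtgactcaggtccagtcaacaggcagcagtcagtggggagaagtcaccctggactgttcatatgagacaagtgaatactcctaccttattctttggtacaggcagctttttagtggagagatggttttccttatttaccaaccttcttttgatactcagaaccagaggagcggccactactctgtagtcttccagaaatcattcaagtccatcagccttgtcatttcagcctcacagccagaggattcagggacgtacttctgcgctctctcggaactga
Trav13-4-dv7: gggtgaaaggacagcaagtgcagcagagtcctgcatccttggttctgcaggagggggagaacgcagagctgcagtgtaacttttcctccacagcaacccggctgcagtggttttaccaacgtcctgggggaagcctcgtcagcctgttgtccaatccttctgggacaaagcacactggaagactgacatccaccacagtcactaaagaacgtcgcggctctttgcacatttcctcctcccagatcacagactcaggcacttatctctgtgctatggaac

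Libraries held 19686870 to 33404302 counts in genes, of which the members took 0.0239% to 0.0707%. Per library this gave 1284 to 6168 Trav and 6434 to 16971 Trbv counts. In KO conventional replicate 3 and WT regulatory replicate 1 every gene count was even, against 45.7% to 47.5% of the nonzero counts of the other 10 libraries. These counts may be doubled, so results are also given without these libraries where that ends a call or moves a count by more than 1.5 times. Coro1a was 2124 to 2712 CPM (counts relative to the TMM-scaled library size) in the 6 WT libraries and 20.9 to 47.3 CPM in the 6 KO libraries. Foxp3 averaged 23.7 CPM in WT conventional, 50.1 in KO conventional, 520.1 in WT regulatory and 573.2 CPM in regulatory libraries of KO. In the same order the coreceptor Cd8a averaged 0.175, 0.596, 24.3 and 19.8 CPM, and Cd4 1176, 719.5, 493.7 and 418.7 CPM.

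The libraries also held RNA of other cells, in amounts that differed between groups. All 10 B cell markers were called higher in KO than WT conventional cells, and in regulatory than conventional cells of WT and of KO. In these 3 comparisons 23.3%, 39.1% and 36.1% of all genes were called higher. Summed levels of the 10 were 5.19 to 7.17 CPM in WT conventional, 36.4 to 61.1 in KO conventional, 3928 to 5459 in WT regulatory and 4375 to 5341 CPM in KO regulatory libraries. All 7 neutrophil markers, all 8 natural killer (NK) cell markers and all 7 macrophage and monocyte markers were also among the 23.3% of genes called higher in KO than WT conventional cells. In that order their sums rose from 4.74 to 12.5, 71.3 to 90.2 and 215.8 to 277.9 CPM in WT conventional to 351.0 to 694.1, 340.9 to 634.8 and 1406 to 3120 CPM in KO conventional libraries. In WT regulatory libraries the same sums were 56.1 to 102.6, 54.1 to 88.5 and 694.1 to 885.9 CPM, and in KO regulatory libraries 109.3 to 237.9, 97.5 to 107.5 and 741.4 to 1529 CPM. Ebf1, a B cell factor, and Ly6g, a neutrophil surface protein, were at 0 in at least 1 WT conventional library, and no marker was at 0 in all libraries of a group. A lower level of a V segment in such bulk RNA can come from fewer T cells or from less receptor RNA per cell, which cannot be told apart here. For this reason the V segments were tested both as levels, relative to all genes, and as usage, relative to the summed counts of their own locus.

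The alpha repertoire was spread over many segments and the beta repertoire over few. By share of counts, not corrected for length, the largest mean of any Trav member over the 12 libraries was 4.49% of Trav counts, for Trav14n-3, followed by Trav14-2 (4.15%), Trav14-1 (3.95%) and Trav9-2 (3.80%). Among Trbv members Trbv13-2 led with 12.9% of Trbv counts, followed by Trbv3 (9.94%), Trbv15 (8.32%) and Trbv1 (8.04%). Trbv13-2 was the most used beta segment in each of the 12 libraries. Trav14n-3 led in all 6 conventional libraries, and Trav14-1, Trav12-2, Trav14-2, Trav9-2 or Trav3-3 in the regulatory ones. Per kilobase of exon, which corrects for length but not for reads shared with copies, the order differed in part. Mean levels per kilobase were 14.3 CPM for Trav14n-3, 11.9 for Trav14-2, 11.6 for Trav13-1 and 10.9 CPM for Trav14-1, the highest of the Trav members, while Trav9-2 at 7.31 CPM ranked 12. Among Trbv members they were 149.1 CPM for Trbv13-2, 86.0 for Trbv15, 85.1 for Trbv3 and 76.5 CPM for Trbv1.

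The effective number of segments, the exponential of the Shannon entropy of the shares, counts how many equally used segments would give the same spread. It was 49.8 ± 0.649 in WT conventional, 51.0 ± 0.557 in KO conventional, 50.6 ± 0.547 in WT regulatory and 49.6 ± 1.06 in regulatory libraries of KO for Trav (SD, n = 3). For Trbv it was 15.5 ± 0.139, 15.5 ± 0.110, 16.1 ± 0.210 and 15.9 ± 0.0978 in the same order (SD, n = 3). The Trbv values of conventional libraries (15.4 to 15.7) all lay below those of regulatory libraries (15.8 to 16.3). Among Trav values WT and KO conventional libraries did not overlap, and the regulatory libraries overlapped with both. The effective numbers were not corrected for depth, which differed between groups. All 76 Trav members had a count in each WT conventional library, against 66 to 72 in KO regulatory libraries.

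Trav rows with few counts were mostly segments that share their sequence with copies. Of the 52 Trav rows below 10 counts, 45 had 0 counts, 44 had a copy-type name, and 39 had no 50-base window in their gene model that was absent from every other V segment. Of the 76 Trav members, 0 lacked such a window, and their median share of unique windows was 56.5%. Reads that fit several places are in a separate tally over the whole library. It held 9.25% to 11.1% of the counts of conventional and 15.8% to 19.5% of those of regulatory libraries. In the beta locus 20 of the 24 members were unique in every window, and the 10 rows below 10 counts were all annotated pseudogenes, which were also unique throughout. The plot of counts against unique windows shows the alpha rows at 0 gathered at the left edge.

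**Figure D1:**
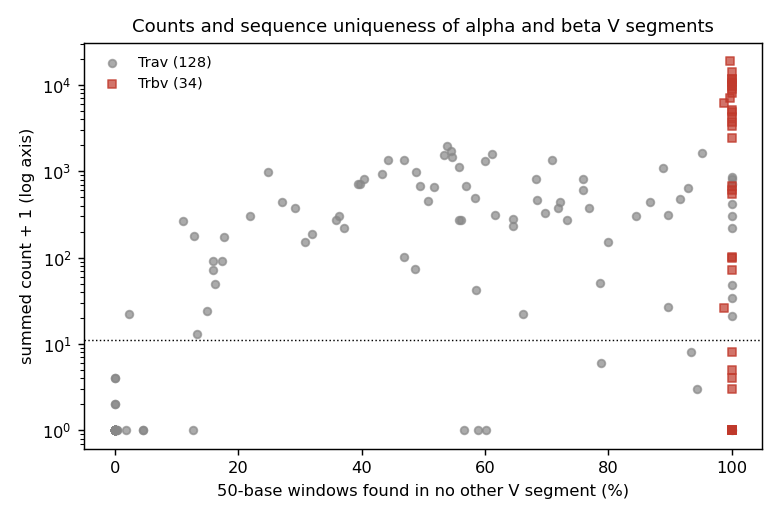
Summed count plus 1 (log axis) of each of the 162 V segments against the share of its 50-base windows found in no other V segment (%), with Trav as grey circles and Trbv as red squares; the dotted line is the threshold for members. The 39 Trav rows with no window of their own lie at 0% with few or no counts.

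Trav11 encodes the invariant alpha chain of natural killer T (iNKT) cells, and its row could not be read for this reason. Trav11 and its copy Trav11d are identical over 290 bases of V exon, had 0% unique windows, and held 3 and 1 counts in all. The third copy, Trav11n, an annotated pseudogene that differs from Trav11 at 6 of 291 positions, held 50 counts. No level of the iNKT alpha chain can be taken from these rows. Trav1, the alpha segment of mucosal-associated invariant T (MAIT) cells, is unique in every window, and its usage was 0.732 ± 0.0890% of Trav counts in WT conventional, 0.648 ± 0.0865% in KO conventional, 1.02 ± 0.388% in WT regulatory and 0.636 ± 0.230% in regulatory libraries of KO (SD, n = 3). Trav1 was called in no comparison of usage.

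The summed level of Trav members was 161.4, 179.6 and 197.6 CPM in WT conventional against 113.8, 123.1 and 107.8 CPM in KO conventional libraries. In WT regulatory libraries it was 94.6, 84.9 and 65.1 CPM, and in KO regulatory libraries 40.1, 65.1 and 67.7 CPM. Every WT conventional library lay above every other library, and WT and KO regulatory libraries overlapped.

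The summed level of Trbv members was 524.3, 536.4 and 543.6 CPM in WT conventional against 346.1, 387.9 and 333.2 CPM in KO conventional libraries. In WT regulatory libraries it was 472.1, 406.4 and 307.6 CPM, and in KO regulatory libraries 201.1, 309.2 and 294.7 CPM. WT conventional libraries were again above all others, and WT regulatory libraries overlapped with both KO groups. Scaled to 6 genes of T cells (Lat, Cd5, Cd6, Cd3d, Cd3e and Cd3g) in place of all genes, the mean Trbv sums were 369.1 CPM in WT conventional, 368.2 in KO conventional, 415.9 in WT regulatory and 402.3 CPM in regulatory libraries of KO.

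Relative to the beta chain, fewer alpha V transcripts were counted in regulatory cells. Libraries held 30.8, 33.5 and 36.3 Trav counts per 100 Trbv counts in WT conventional against 32.9, 31.7 and 32.4 in KO conventional cells. WT regulatory libraries held 20.03 to 21.2, and KO regulatory libraries 19.96 to 22.96. All 6 conventional libraries lay above all 6 regulatory ones, and the genotypes overlapped within each cell type. This ratio needs no scaling of the libraries, but it leaves out reads that fit several places. The tally of such reads was larger in regulatory libraries, and Trav members share more sequence with copies than Trbv members. Their part in the ratio was not tested.

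The constant regions were lower in the same groups. Trac was 1131 ± 104 CPM in WT conventional, 727.4 ± 58.8 in KO conventional, 551.6 ± 106 in WT regulatory and 398.9 ± 101 CPM in regulatory libraries of KO (SD, n = 3). The ratio of Trav to Trac counts was 15.9 ± 0.168, 15.8 ± 0.211, 14.8 ± 0.911 and 14.4 ± 0.250 per 100 in these groups (SD, n = 3). Joining segments of the alpha chain were lower relative to Trac in regulatory cells. Their summed level was 4.13 ± 0.232 per 100 Trac in WT conventional, 4.10 ± 0.198 in KO conventional, 1.49 ± 0.326 in WT regulatory and 1.51 ± 0.254 in regulatory libraries of KO (SD, n = 3), with all regulatory below all conventional libraries. Of 56 joining and diversity segments tested, 54 were called lower in WT regulatory than WT conventional cells and 53 in KO, with medians of -2.43 and -2.25 on the log2 scale, where 33.3% and 31.7% of all genes were called lower.

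**Figure D2:**
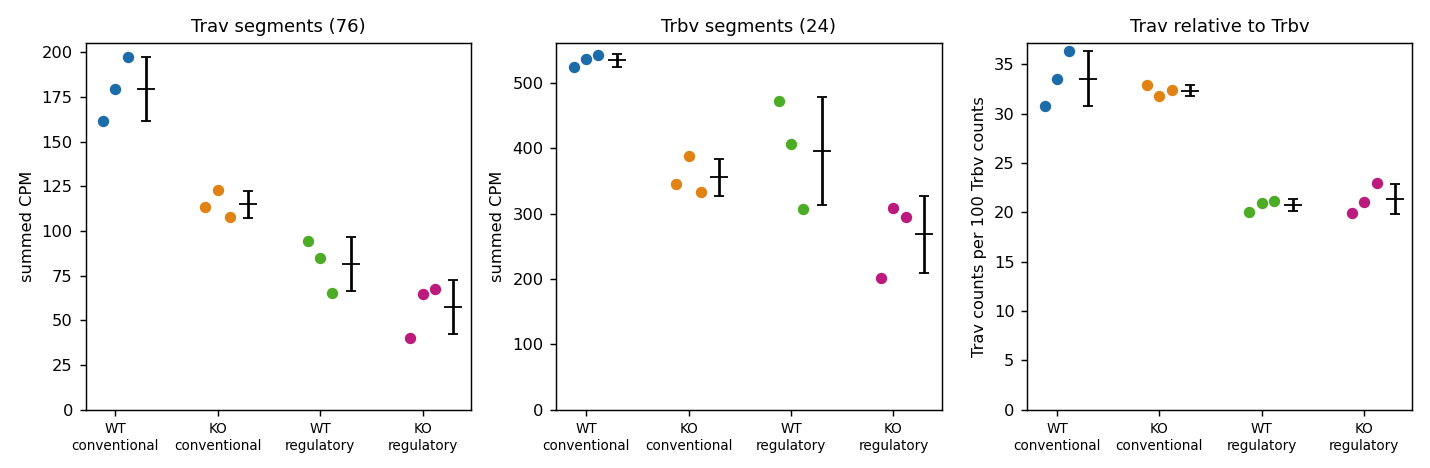
Summed CPM of the 76 Trav (left) and 24 Trbv members (middle) and Trav counts per 100 Trbv counts (right) in each library by group, bars giving mean and SD over 3 libraries. WT conventional libraries have the highest sums, and the ratio lies between 30.8 and 36.3 in conventional and between 19.96 and 22.96 in regulatory libraries.

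Levels were tested for the 86 members, 64 Trav and 22 Trbv, that passed the filter on low counts. The other 14 members, 12 Trav and 2 Trbv with totals of 12 to 71 counts, were not tested. In conventional cells 40 of the 86 were called between KO and WT (edgeR's quasi-likelihood test, adjusted p under 0.05), 1 higher and 39 lower. Of all 15922 genes tested 48.7% were called in that comparison, 23.3% higher and 25.4% lower. The median log2 fold change of the 86 was -0.67, against -0.05 over all genes, and 78 of the 86 were below 0. These numbers depend on the scaling: relative to the 6 T cell genes, where the median of all genes was 0.53, the members' median was -0.08 and 5 were called, 4 higher and 1 lower. Called members numbered 20 without KO conventional replicate 3, 25 without WT conventional replicate 2, 21 without WT conventional replicate 3, and 23 without both libraries of even counts. The 6 T cell genes were themselves called lower in KO conventional cells, 6 of 6. In KO regulatory cells 1 of 6 was called lower, where 3.82% of all genes were.

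Among the lower segments Trbv14 was 11.4 ± 1.15 CPM in WT against 4.91 ± 0.750 CPM in KO conventional cells (SD, n = 3), a log2 difference of -1.22 with SE 0.18 and adjusted p = 3.07e-04. Trbv20 was 21.9 ± 0.711 and 11.3 ± 1.49 CPM (SD, n = 3), with a change of -0.95 with SE 0.15 and adjusted p = 4.93e-04. Trav6d-5 was 1.46 ± 0.179 and 0.675 ± 0.0508 CPM (SD, n = 3), with a change of -1.11 with SE 0.22 and adjusted p = 0.00154. Relative to the 6 T cell genes the changes of Trbv20 and Trav6d-5 were -0.37 and -0.51 and not called, with adjusted p = 0.103 and 0.207, while Trbv14 stayed called. The genes that share the receptor with the V segments were lower as well. Of the constant segments 3 of 3 were called lower and of the CD3 signalling chains 4 of 4, with medians of -0.46 and -0.60, where 25.4% of all genes were called lower. Trac and Trbc1 changed by -0.64 and -0.46 (SE 0.18 and 0.15).

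The exception was Trav15-2-dv6-2, the only member called higher as a level in KO conventional cells relative to all genes. It was 0.908, 0.848 and 0.865 CPM in WT against 1.497, 1.74 and 1.46 CPM in KO conventional libraries, without overlap, a log2 difference of 0.84 with SE 0.25 and adjusted p = 0.0176. The call was lost without WT conventional replicate 2 (0.82, adjusted p = 0.0589), without WT conventional replicate 3 (0.83, adjusted p = 0.0541) and without KO conventional replicate 2 (0.75, adjusted p = 0.0622).

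In regulatory cells 9 of the 86 members were called between KO and WT, all lower, where 7.83% of all genes were called and 3.82% were lower. The 9 were 8 Trbv and 1 Trav segments. The median over the 86 was -0.52, against 0.00 over all genes, and 82 were below 0. Relative to the 6 T cell genes the median was -0.03 and 1 member was called. Leaving out WT regulatory replicate 3 raised the number to 22, while 1 was called without WT regulatory replicate 1, 2 without WT regulatory replicate 2, 2 without KO regulatory replicate 1, 3 without KO regulatory replicate 3, 5 without WT conventional replicate 2 and 2 without both libraries of even counts. DESeq2 called 17 and a fit of the regulatory libraries alone called 0. Trbv30 was 2.50 ± 0.574 CPM in WT against 1.06 ± 0.213 CPM in KO regulatory cells (SD, n = 3), a log2 difference of -1.22 with SE 0.23 and adjusted p = 0.0109. Its call did not depend on any single library but was lost relative to the 6 T cell genes (-0.73, adjusted p = 0.0568) and in the fit of the regulatory libraries alone (-1.22, adjusted p = 0.0724).

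Usage, the share of a segment in its locus, was called different between genotypes for few segments in the fit of all 12 libraries. Shares within a locus sum to 100%, so they are not independent of each other. In conventional cells 5 of 86 members were called, 4 higher and 1 lower, and the median log2 fold change was -0.04. The number called was 3 without any 1 conventional library, without WT regulatory replicate 2 and without both libraries of even counts. It was 13 in a fit of the conventional libraries alone, so it depends on the libraries from which the spread is estimated. In the fits scaled to locus totals 39.8% (Trav fit) and 42.4% (Trbv fit) of all genes were called, 39.5% and 42% higher and 0.251% and 0.358% lower, with medians over all genes of 0.58 and 0.54. The spread of each segment was estimated with information from all these genes, so a usage SE does not rest on that segment's own libraries alone. The adjustment of p ran over the same genes, most of which are not V segments. Where many of them are called, a usage call is little stricter than an unadjusted p under 0.05, and the bar differs between fits and comparisons. Members with an unadjusted p under 0.05 numbered 6 here, 4 in regulatory cells and 8 between cell types in each genotype.

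Trbv12-1 (ENSMUSG00000095574, chr6:41113550-41114067) rose in usage with the knockout. It made up 1.66, 1.44 and 1.36% of Trbv counts in WT conventional against 2.56, 2.91 and 2.66% in KO conventional libraries. The groups did not overlap, and the log2 difference was 0.87 with SE 0.18 and adjusted p = 0.00187. In regulatory cells it made up 4.45, 4.45 and 4.77% in WT and 6.53, 6.26 and 6.80% in KO libraries, again without overlap, a change of 0.52 with SE 0.18 and adjusted p = 0.0392. The first call held in all 23 alternatives tried, and the second was lost in 15 of 23, at adjusted p values up to 0.202, including the omission of any conventional library (0.0552 to 0.0629), of WT regulatory replicate 1 (0.138) or 2 (0.134), or of KO regulatory replicate 1 (0.0898) or 3 (0.0709). Without WT regulatory replicate 3 the call held and 3 members were called. It was the only member called in usage in regulatory cells, where 6.23% (Trav fit) and 40.8% (Trbv fit) of all genes were called, 6.16% and 40.5% higher and 0.0691% and 0.245% lower. As a level Trbv12-1 was 7.94 ± 0.665 CPM in WT against 9.67 ± 1.38 CPM in KO conventional cells (SD, n = 3) and was not called. Among markers of regulatory T cells 5 of 6 passed the test as higher in KO than WT conventional cells and 0 as lower, where 23.3% of all genes were called higher. Their summed levels were 141.0 to 200.9 CPM in WT and 272.1 to 457.2 CPM in KO conventional libraries. Between genotypes in regulatory cells, where 7.83% of all genes were called, 0 of these 6 markers were. Their part in the usage of Trbv12-1, which was also higher in regulatory than conventional cells, was not tested.

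Trbv12-2, of the same family, passed no test of usage. Trbv12-2 made up 3.71 ± 0.0593% in WT conventional, 4.42 ± 0.289% in KO conventional, 4.21 ± 0.543% in WT regulatory and 5.33 ± 0.0807% in regulatory libraries of KO (SD, n = 3). Counts of Trbv12-1 per 100 counts of Trbv12-2 were 44.6, 39.5 and 36.2 in WT conventional, 61.1, 61.2 and 61.6 in KO conventional, 114.8, 113.6 and 98.5 in WT regulatory and 122.4, 119.4 and 125.8 in regulatory libraries of KO. The 4 groups did not overlap in this ratio, while the exons printed above leave nearly every 50-base window of both genes unique.

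Trbv14 was the 1 segment called lower in usage in KO conventional cells, where 48 of 86 members had a negative change. It made up 1.97, 2.35 and 2.09% of Trbv counts in WT and 1.40, 1.47 and 1.26% in KO libraries, without overlap, a log2 difference of -0.64 with SE 0.23 and adjusted p = 0.0364. The call was lost without any 1 conventional library (adjusted p = 0.0662 to 0.138), without WT regulatory replicate 2 (0.0559) and without both libraries of even counts (0.112), and also without a filter (0.149), with the replicate block (0.0704) and at a threshold of 0.01.

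The 3 alpha segments that rose in usage in KO conventional cells can all be joined into delta chains. Their identifiers are ENSMUSG00000076848 (Trav15-2-dv6-2), ENSMUSG00000094562 (Trav13-4-dv7) and ENSMUSG00000094016 (Trav15-1-dv6-1). Trav15-2-dv6-2 made up 0.563, 0.472 and 0.438% of Trav counts in WT and 1.32, 1.42 and 1.35% in KO conventional libraries, a log2 difference of 1.47 with SE 0.34 and adjusted p = 0.00356. Trav13-4-dv7 made up 0.646, 0.763 and 0.713% in WT and 1.78, 1.93 and 1.69% in KO conventional libraries, a change of 1.34 with SE 0.36 and adjusted p = 0.00799. Trav15-1-dv6-1 made up 1.38, 1.53 and 1.30% in WT and 2.51, 2.25 and 2.76% in KO conventional libraries, a change of 0.84 with SE 0.32 and adjusted p = 0.0490. KO lay above WT in every library for all 3 segments. The first 2 calls held in all 23 alternatives, whereas that of Trav15-1-dv6-1 was lost in 14 of 23, among them the omission of any 1 conventional library (adjusted p = 0.0817 to 0.157), of WT regulatory replicate 2 (0.0673) or of KO regulatory replicate 2 (0.0557). The counts behind these shares were 26 to 103 per library.

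In regulatory cells none of these 3 segments was called. Trav15-2-dv6-2 made up 0.530 ± 0.0733% of Trav counts in WT and 0.533 ± 0.0784% in KO regulatory libraries, Trav13-4-dv7 0.724 ± 0.332% and 0.895 ± 0.0701%, and Trav15-1-dv6-1 0.947 ± 0.276% and 1.00 ± 0.211% (SD, n = 3). The groups overlapped for each, and with 7 to 29 counts per library the 95% intervals of the log2 changes were wide, from -0.85 to 0.86 for the first.

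Of the 8 Trav members with a dv name the other 5 were not called. Trav16d-dv11, Trav21-dv12, Trav14d-3-dv8, Trav4-4-dv10 and Trav6-7-dv9 had usage changes of 0.31, 0.11, -0.22, -0.19 and -0.20 (SE 0.27 to 0.38) in conventional cells. Of the 56 tested Trav members without a dv name 0 were called, at a median of -0.04. Measured against a Trav total without the 8 dv segments, a setting chosen after seeing the data, the changes of the 3 called segments were 1.503, 1.38 and 0.87.

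Genes of gamma delta T cells, which carry a gamma and a delta chain in place of alpha and beta, were higher in the same libraries. Of 15 gamma and delta constant and V segments tested, 13 were called higher in KO than WT conventional cells, at a median of 2.86, where 23.3% of all genes were called higher. The delta constant region Trdc was 16.9, 14.6 and 12.7 CPM in WT against 81.2, 67.6 and 81.3 CPM in KO conventional libraries, a log2 difference of 2.38 with SE 0.37 and adjusted p = 3.53e-04. In regulatory libraries Trdc was 14.9 ± 6.32 CPM in WT against 21.3 ± 10.2 CPM in KO (SD, n = 3). There 1 of the 15 genes was called higher, at a median of 0.89, where 4.01% of all genes were called higher. That gene was the gamma constant region Tcrg-C1, at 14.1 ± 4.43 CPM in WT and 42.0 ± 13.8 CPM in KO regulatory libraries (SD, n = 3). Its log2 difference was 1.58 with SE 0.28 and adjusted p = 0.00953, and it averaged 38.5 CPM in KO conventional libraries. Zbtb16, the transcription factor of innate-like T cells including iNKT cells and some gamma delta T cells, was 11.2, 6.88 and 5.35 CPM in WT against 32.1, 32.2 and 26.6 CPM in KO conventional libraries, a change of 1.96 with SE 0.36 and adjusted p = 0.00103. The share of Trav15-2-dv6-2, Trav13-4-dv7 and Trav15-1-dv6-1 transcripts that carry a delta constant region is not in these counts, and the part of gamma delta T cells in their rise was not tested.

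**Figure D3:**
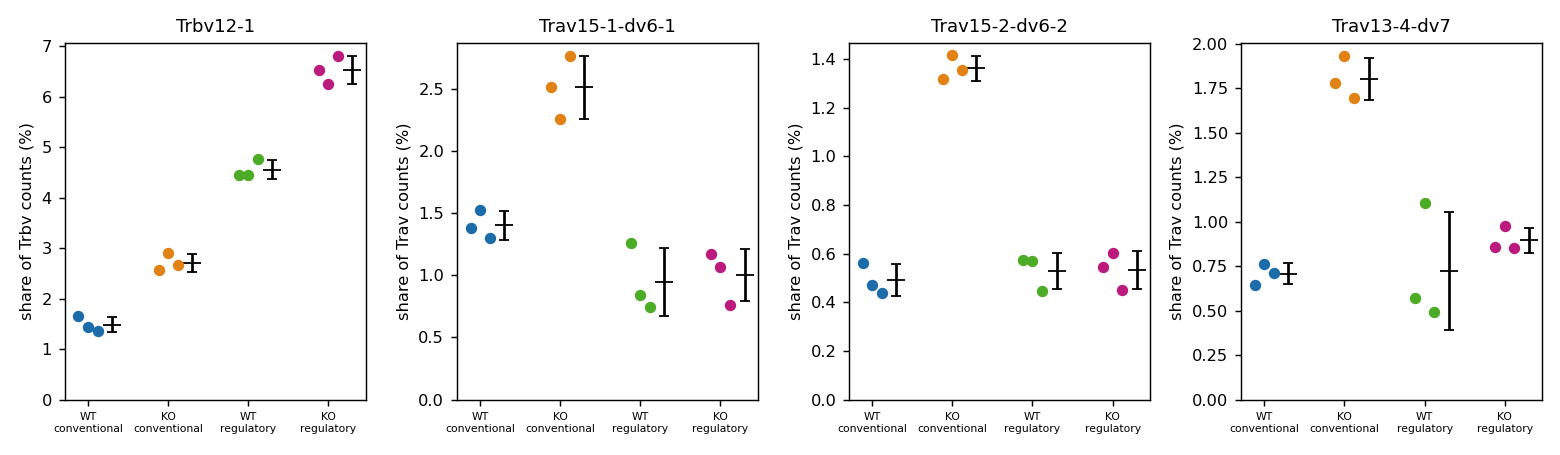
Share (%) of Trbv12-1 in Trbv counts and of Trav15-1-dv6-1, Trav15-2-dv6-2 and Trav13-4-dv7 in Trav counts, 1 point per library by group, bars giving mean and SD over 3 libraries. Trbv12-1 runs from 1.36% to 6.80% in 4 groups that do not overlap, while the 3 alpha segments are highest in KO conventional libraries.

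Between cell types levels were lower in regulatory cells for most members. In WT 61 of 86 were called, 1 higher and 60 lower, where 72.4% of all genes were called, 39.1% higher and 33.3% lower. In KO 51 were called, 1 higher and 50 lower, where 67.8% of all genes were called, 36.1% higher and 31.7% lower. Medians were -1.04 for Trav and -0.42 for Trbv in WT, and -0.96 and -0.43 in KO, against 0.07 and 0.03 over all genes. Relative to the 6 T cell genes, where all genes had medians of 0.71 and 0.62, Trav medians were -0.42 in both genotypes but Trbv medians turned to 0.20 in WT and 0.10 in KO, and 19 and 14 members were called. B cell markers were the most different of the marker lists in these comparisons (median 10.61 in WT), and the part of other cells' RNA in the level differences was not tested.

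Trav14n-3, the leading alpha segment, fell in level from 9.95 ± 1.01 CPM in WT conventional to 3.06 ± 0.570 CPM in WT regulatory cells (SD, n = 3), a log2 difference of -1.71 with SE 0.18 and adjusted p = 6.45e-06. In KO it fell from 5.51 ± 0.251 to 2.17 ± 0.428 CPM (SD, n = 3), a change of -1.34 with SE 0.18 and adjusted p = 5.53e-05. Both calls held in all 24 alternatives. Its usage was 5.55 ± 0.264% and 3.76 ± 0.0241% in WT and 4.81 ± 0.426% and 3.84 ± 0.512% in KO (SD, n = 3) and was called in neither genotype.

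Trbv12-1 was the only member called higher in level in regulatory cells, in both genotypes. It was 8.68, 7.73 and 7.40 CPM in WT conventional and 21.01, 18.1 and 14.7 CPM in WT regulatory libraries, without overlap, a log2 difference of 1.17 with SE 0.18 and adjusted p = 1.22e-04. In KO it was 8.87, 11.3 and 8.88 CPM in conventional and 13.1, 19.4 and 20.03 CPM in regulatory libraries, a change of 0.86 with SE 0.18 and adjusted p = 0.00121. In usage it was higher by 1.62 with SE 0.18 and adjusted p = 5.53e-06 in WT and by 1.27 with SE 0.18 and adjusted p = 6.70e-05 in KO. All 4 of these calls held in all alternatives tried, which number 24 for levels and 23 for usage.

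In WT 5 other segments were called in usage between cell types, where 79.9% (Trav fit) and 55.9% (Trbv fit) of all genes were called, 77.6% and 47.9% higher and 2.34% and 8.05% lower. Without WT conventional replicate 2 or 3 the number called was 3 in place of 6. Trav14-3 fell from 2.46, 2.67 and 2.43% of Trav counts in conventional to 1.49, 0.952 and 1.19% in regulatory libraries, a log2 difference of -1.07 with SE 0.32 and adjusted p = 0.00579 that held in all 23 alternatives. Trbv31, which lies apart from the other beta segments and on the minus strand, fell from 6.44, 6.83 and 6.36% of Trbv counts to 4.70, 4.53 and 4.40%, a change of -0.53 with SE 0.16 and adjusted p = 0.0114 that was lost without WT conventional replicate 2 (-0.50, adjusted p = 0.0576), without a filter (0.0895) and at a threshold of 0.01. Neither segment overlapped between these groups.

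The other 3 calls were lost in several alternatives, single libraries left out among them. Trbv30 was higher by 0.77 with SE 0.28 and adjusted p = 0.0307, Trav4-2 by 1.00 with SE 0.43 and adjusted p = 0.0430, and the pseudogene Trav8-2 lower, at -1.06 with SE 0.43 and adjusted p = 0.0336. Trav4-2 was 1.95, 0.876 and 1.24% of Trav counts in the WT regulatory libraries, against 0.632 to 0.708% in WT conventional ones. Its call was lost in 16 of 23 alternatives, among them the omission of WT regulatory replicate 1 (0.65, adjusted p = 0.201) or 3 (0.0616), and of any conventional library (0.0523 to 0.105). Trbv30 was 0.665, 0.501 and 0.754% of Trbv counts in WT regulatory against 0.340 to 0.401% in WT conventional libraries, and lost its call in 10 of 23 alternatives, among them the omission of any 1 WT conventional library (adjusted p = 0.0650 to 0.109) or WT regulatory replicate 3 (0.102), DESeq2 (0.0735) and no filter (0.141). Trav8-2 lost its call in 9 of 23, among them the omission of WT conventional replicate 2 or 3 or WT regulatory replicate 1 or 3 (adjusted p = 0.0686 to 0.116), DESeq2 (0.111) and no filter (0.0877).

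In KO 6 segments were called in usage between cell types, 1 higher and 5 lower, where 74.6% (Trav fit) and 51.8% (Trbv fit) of all genes were called, 71.6% and 43.8% higher and 3.06% and 7.96% lower. Without KO conventional replicate 1 or 2 the number called was 3. Besides Trbv12-1 they were the 3 dual alpha and delta segments, the leading beta segment and a pseudogene. Trav15-2-dv6-2 fell from 1.36 ± 0.0513% to 0.533 ± 0.0784% of Trav counts (SD, n = 3), a log2 difference of -1.35 with SE 0.37 and adjusted p = 0.00372. Trav15-1-dv6-1 fell from 2.51 ± 0.255% to 1.00 ± 0.211% (SD, n = 3), a change of -1.34 with SE 0.35 and adjusted p = 0.00249. Trav13-4-dv7 fell from 1.80 ± 0.119% to 0.895 ± 0.0701% (SD, n = 3), a change of -1.002 with SE 0.37 and adjusted p = 0.0226. The first 2 held in all 23 alternatives, and the third was lost without KO conventional replicate 1 (adjusted p = 0.0522) or 2 (0.0699) or KO regulatory replicate 3 (0.0575), with DESeq2 (0.0608), without a filter (0.0695) and at a threshold of 0.01. These comparisons share their KO conventional libraries with the comparison of KO and WT conventional cells, so the falls are not independent of the rises given above.

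Trbv13-2 made up 14.99, 14.9 and 14.8% of Trbv counts in KO conventional and 11.1, 10.8 and 11.4% in KO regulatory libraries, a log2 difference of -0.42 with SE 0.14 and adjusted p = 0.0207. In WT it made up 14.1, 13.4 and 13.3% in conventional and 12.1, 12.1 and 11.4% in regulatory libraries, a change of -0.20 with SE 0.14 and adjusted p = 0.240 that was not called although the groups did not overlap. The KO call was lost without any 1 KO conventional library (adjusted p = 0.0597 to 0.0664) or KO regulatory replicate 3 (0.0501), and also without a filter (0.124), with the replicate block (0.0556), in the fit of only the groups compared (0.105) and at a threshold of 0.01. Trbv24, an annotated pseudogene, fell from 0.530 ± 0.0289% to 0.281 ± 0.0360% in KO (SD, n = 3), a change of -0.91 with SE 0.34 and adjusted p = 0.0345. Its call was lost in 12 of 23 alternatives, among them the omission of any 1 KO library (adjusted p = 0.0520 to 0.0894), DESeq2 (0.0765), no filter (0.0962), the replicate block (0.0540) and the fit of only the groups compared (0.0516).

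**Figure D4:**
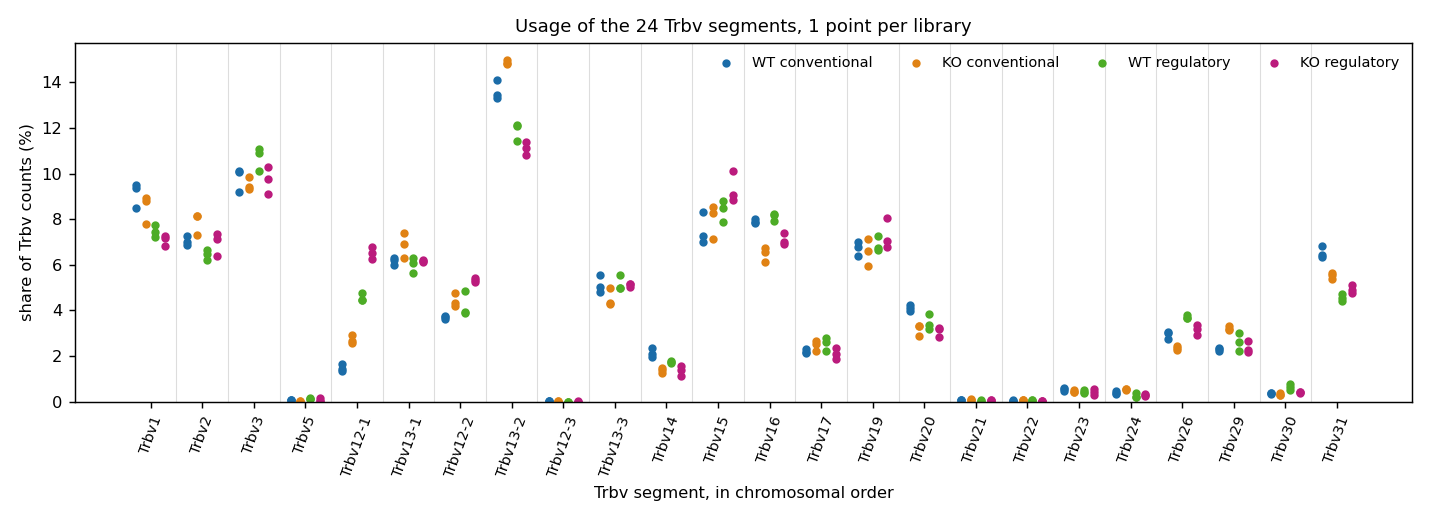
Share (%) of each of the 24 Trbv members in the Trbv counts of each library, 1 point per library, with segments in chromosomal order and groups by colour. Trbv13-2 is the most used segment in every library, and Trbv12-1 separates the 4 groups.

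The difference in usage between cell types was set side by side in WT and KO. Over the 22 tested Trbv members the log2 fold changes of the 2 genotypes, which share no library, had a Pearson correlation of 0.84, or 0.76 without Trbv12-1, and 20 had the same sign. Over the 64 Trav members the correlation was 0.44 and 43 had the same sign. These are descriptions across segments, which are not independent replicates, and Trav shares rest on fewer counts.

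Whole profiles were compared by the distance between libraries, the summed share in percentage points that must be moved to turn one profile into the other. For Trbv the median distance was 2.89 to 3.83 within the 4 groups, 7.15 between WT and KO conventional, 5.75 between WT and KO regulatory, 8.31 between WT cell types and 9.63 between KO cell types. No pair of libraries from different groups was closer than 4.94, and no pair within a group was farther apart than 4.35. For Trav the medians were 5.98 to 12.1 within groups and 10.8 to 13.9 between the same pairs of groups. Ranges overlapped with those within the groups compared, except between KO cell types. There the distances were 12.7 to 14.9, against 8.10 to 10.2 within KO conventional and 10.9 to 12.5 within KO regulatory libraries.

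**Figure D5:**
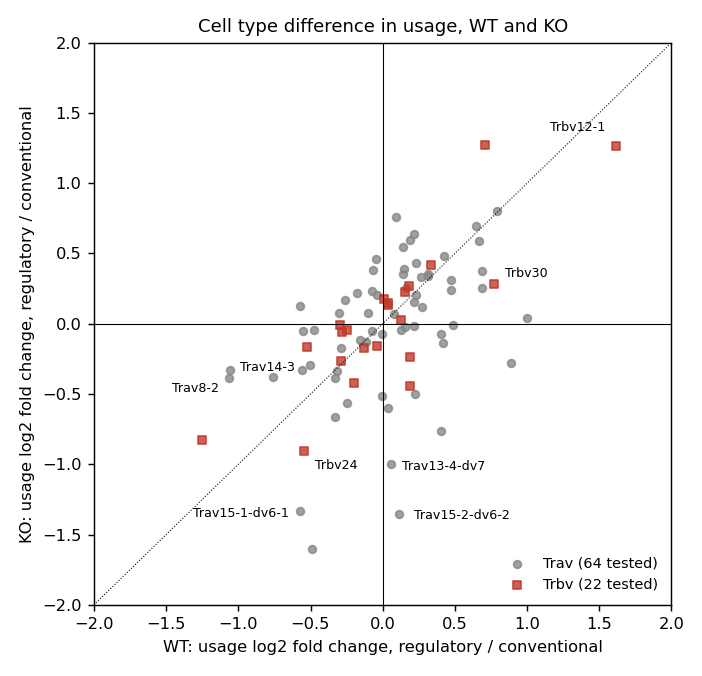
Log2 fold change of usage between regulatory and conventional cells in KO (vertical) against WT (horizontal) for the 64 Trav (grey circles) and 22 Trbv members tested (red squares), with the line of equal change dotted. Trbv12-1 lies at 1.62 and 1.27, and the 3 dual alpha and delta segments lie below the line.

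The knockout effect was also compared between cell types by the difference of the log2 fold changes, regulatory minus conventional. As a level 1 of 86 members was called, Trav15-2-dv6-2 at -1.33 with SE 0.41 and adjusted p = 0.0391, where 21.3% of all genes were called, 8.86% higher and 12.4% lower. Its call was lost in 17 of 23 alternatives, among them the omission of any 1 library except WT regulatory replicate 3 and KO regulatory replicate 2 (adjusted p = 0.0636 to 0.0946). Without WT regulatory replicate 3 the number of members called was 3. In usage 0 of 86 members were called by edgeR's quasi-likelihood test, and also 0 by DESeq2 and limma-voom, while 2 had an unadjusted p under 0.05 and 5.73% (Trav fit) and 5.70% (Trbv fit) of all genes were called, 0.1% and 0.176% higher and 5.63% and 5.52% lower. The difference for Trav15-2-dv6-2 was -1.46 in usage and that for Trbv12-1 was -0.35, with 95% intervals from -2.58 to -0.35 and from -0.89 to 0.19.

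Segments known from invariant T cells and segments known for binding superantigens were described as lists. The 7 tested invariant members, Trav1, Trbv13-1, Trbv13-2, Trbv13-3, Trbv29, Trbv1 and Trbv19, are alpha or beta segments of MAIT or iNKT cells that conventional T cells use as well. In level 5 were called lower in KO conventional and 1 in KO regulatory cells, with medians of -0.61 and -0.62, where 25.4% and 3.82% of all genes were called lower. In usage 0 of 7 were called by either knockout comparison. The levels of Trbv13-1 and Trbv13-2 in KO conventional cells turned upward, to 0.15 and 0.12, relative to the 6 T cell genes. The 6 superantigen-reactive members, Trbv12-1, Trbv12-2, Trbv16, Trbv15, Trbv26 and Trbv24, belong to beta families recognised by superantigens of endogenous retroviruses. In usage Trbv12-1 alone was called higher with the knockout, and the median over the 6 was 0.17 in conventional and 0.12 in regulatory cells. Trbv16 made up 7.91 ± 0.0819% in WT and 6.48 ± 0.309% in KO conventional, and 8.12 ± 0.155% in WT and 7.11 ± 0.263% in KO regulatory libraries (SD, n = 3). Trbv26 made up 2.94 ± 0.163% and 2.36 ± 0.0836%, and 3.71 ± 0.0843% and 3.15 ± 0.210% (SD, n = 3). WT and KO did not overlap for either segment in either cell type, but neither passed the test in usage. How many of the other members also did not overlap was not counted.

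Position along the chromosome was read by cutting the members of each locus into 4 runs of equal number. The last 19 Trav members, from Trav3-3 to Trav23 on the side of the joining segments, held 28.3, 29.1 and 27.8% of Trav counts in WT conventional against 29.7, 32.2 and 30.3% in KO conventional libraries. They include Trav13-4-dv7, whose own usage was called higher in KO conventional cells. In regulatory libraries they held 26.4, 25.4 and 26.5% in WT and 29.3, 30.4 and 30.1% in KO. KO lay above WT in both cell types. The first 19, from Trav1 to Trav8d-2, held 10.4 ± 0.177% and 9.77 ± 0.247% in WT and KO conventional and 12.2 ± 0.112% and 10.6 ± 0.879% in WT and KO regulatory libraries (SD, n = 3). The last Trbv run, Trbv23 to Trbv31, separated the genotypes in both cell types as well. It held 12.6 to 13.6% of Trbv counts in WT and 12.3 to 12.5% in KO conventional libraries. In regulatory libraries it held 11.96 to 12.4% and 11.4 to 11.7%. Some other runs separated the genotypes in a single cell type, and no run was tested.

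Among the 10 tested genes that assemble receptor genes, 6 were called lower and 0 higher in KO conventional cells, at a median of -0.23, where 25.4% of all genes were called lower and 23.3% higher. Between cell types 4 were called higher and 4 lower in WT regulatory cells, and 5 and 3 in KO, where 39.1% and 33.3% of all genes were called in WT and 36.1% and 31.7% in KO. Rag1 and Rag2, which encode the enzyme that cuts receptor genes, were among those called higher in regulatory cells of both genotypes, as were all 10 B cell markers, whose part was not tested. Dntt, the polymerase that adds bases at the joints of receptor segments, was 12.3, 12.03 and 10.4 CPM in WT against 4.01 to 4.77 CPM in KO conventional libraries, a log2 difference of -1.42 with SE 0.22 and adjusted p = 3.41e-04. In regulatory libraries Dntt was 6.93, 5.95 and 6.77 CPM in WT against 18.7, 24.2 and 37.7 CPM in KO, a change of 2.04 with SE 0.22 and adjusted p = 9.55e-04, and it was the 1 gene of the list called there. The 2 effects differed by 3.46 with SE 0.31 and adjusted p = 1.21e-04. Genotypes did not overlap in either cell type, and the direction was opposite.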

How the data were processed

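Raw read counts of 12 libraries were deposited, with Ensembl gene IDs as rows. Alignment used STAR 1.7.20 and GRCm38, as the submitters' processing notes give them. Counting was reverse-stranded, per the file name. The annotation release is not given in the sources used here. Symbols matched 45143 of 45706 IDs. Sequences, positions and types come from GENCODE M21. Segments sharing reads with copies are uncertain.

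R 4.3.3, edgeR 4.0.16 (filterByExpr, TMM, quasi-likelihood F test, two-sided, Benjamini-Hochberg over all 15922 genes, threshold 0.05), limma 3.58.1 and DESeq2 1.42.0 were used. Each fit held all 12 libraries and 1 mean per group. The biological coefficient of variation was 0.155. Standard errors were derived from the F statistic. For usage, library sizes were set to the summed Trav or Trbv counts, and the spread was estimated over all tested genes on that scale. The code was also run on simulated counts. These held a limited set of changed genes and not the shift of most genes seen in the usage fits, so they do not test the usage calls. Python 3.11.15 and matplotlib 3.10.9 drew the plots.

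Members, lists and tests were chosen with earlier results of these data known. The naming rule took the 6 most used members per locus, up to 3 called members with the smallest p per direction, comparison and scaling, and the members of the invariant and superantigen lists. Trav15-1-dv6-1 in KO conventional cells, Trav13-4-dv7 between KO cell types, the 5 uncalled dv segments, Trav11 with its copies, Dntt, Rag1, Rag2, Trdc, Trac and Zbtb16 were chosen by their values, outside that rule. The same holds for Tcrg-C1, Cd4, Cd8a and Cd8b1. Marker and pathway lists were described by counts and medians. Alternatives were RLE, upper-quartile and 6-gene scaling, DESeq2, limma-voom, 2 filters, other locus totals, fits of the compared groups alone, omission of each library, a block for replicate number and a threshold of 0.01. Halving or leaving out the libraries of even counts was chosen after seeing the data. Regulatory markers were called higher for 6 of 6 genes in regulatory cells of both genotypes. Of the 3 coreceptors Cd8a and Cd8b1 were called higher there and Cd4 lower. Of all genes 39.1% were called higher and 33.3% lower in WT, and 36.1% and 31.7% in KO.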

Additional observations from a re-analysis of the deposited data

Results flagged for a closer look

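The effect of the knockout on the level of Trav15-2-dv6-2 was called different between cell types, a call lost in most alternatives. The difference of the log2 fold changes, regulatory minus conventional, was -1.33 (SE 0.41, adjusted p = 0.0391 by edgeR's quasi-likelihood test). The level was 0.874 ± 0.0312 CPM in WT against 1.57 ± 0.155 CPM in KO conventional cells, and 0.439 ± 0.132 CPM in WT against 0.305 ± 0.0872 CPM in KO regulatory cells (SD, n = 3). Over its 23 alternatives the difference ran from -1.60 to -1.14, and adjusted p from 0.0208 to 0.0995, with the call lost in 17. In the same comparison 8 of 15 gamma and delta segments were called lower, where 12.4% of all genes were called lower. So were 10 of 10 B cell, 6 of 7 neutrophil, 7 of 8 NK cell and 5 of 7 macrophage and monocyte markers. The part of these lists was not tested.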

How the results depend on the processing

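Counts of members called depended on the processing more than the leading segments did. Leaving out each library in turn gave 20 to 48 level calls for KO against WT in conventional and 1 to 22 in regulatory cells, 46 to 66 between cell types in WT and 39 to 58 in KO, and 0 to 3 for the difference of effects. In usage the ranges were 3 to 6, 0 to 3, 3 to 9, 3 to 7 and 0 to 0.

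In the order KO against WT in conventional and regulatory cells, cell types in WT and in KO, and difference of effects, level calls were 40, 9, 61, 51 and 1, and usage calls 5, 1, 6, 6 and 0. At a threshold of 0.01 level calls were 15, 0, 33 and 0 in all but the third, and usage calls 3, 0, 2 and 3 in the first 4. With the 6 T cell genes level calls were 5, 1, 19, 14 and 0. Without a filter usage calls were 3, 0, 2 and 3, and the level difference of effects gave 0. Fitting only the groups compared gave 0 level calls in regulatory cells, and 13 and 0 usage calls for the 2 knockout comparisons. DESeq2 gave 17 level calls in regulatory cells, 3 usage calls between WT cell types and 0 for the level difference of effects, for which limma-voom also gave 0. Without both libraries of even counts level calls were 23 and 2 for the knockout comparisons and 0 for their difference, and usage calls 3 and 0. The cause was not tested, apart from the stricter threshold and the smaller number of libraries.

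Replicate numbers did not pair the libraries: over 18 pairs with the same number the correlation of deviations ran from -0.518 to 0.176, and 4 were over 0.1. With the number as a block level calls were 36, 6, 58, 49 and 0, and usage calls 3, 0, 3, 4 and 0.

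Relative to the 6 T cell genes the level of Trbv13-1 turned to 0.15 between KO and WT conventional cells and to 0.13 between WT cell types. Likewise Trbv13-2 turned to 0.12 and Trbv2 to 0.16 between KO and WT conventional cells, Trbv2 to 0.043 between WT cell types and Trbv20 to 0.081 between KO cell types. Segments with few counts, such as the 14 untested members, set the limit of depth.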
